A study of Mus musculus with 6 samples.

Results

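Dnmt3a, Dnmt3b, Tet1, Tet2, Tet3, Asxl1, Ezh1, Ezh2, Bmi1 and Kdm6b write, oxidise or erase DNA methylation, or act in or against the Polycomb system that keeps genes silent through histone marks. Kdm6b acts against it, by removing one of these marks. These 10 genes were taken by name from a normalized expression table of mouse long-term haematopoietic stem cells (LT-HSC), the bone marrow cells that renew themselves and give rise to all blood lineages. All 10 were found, and all 10 were among the 12008 genes of the table that passed the filter on low values, which left out 11990 others. Both groups of mice were on the C57BL/6 background. One group was Itpkb-/-, carrying the allele given in the labels as ENU-induced Ms T-less, and the other was wild-type. Itpkb encodes a kinase that phosphorylates the messenger inositol trisphosphate. The ENU allele is inherited, so the marrow environment and the rest of the body carried it as well as the stem cells. Each genotype had 3 libraries. Each library was a pool of bone marrow from 4 age-matched mice, from which at least 10000 cells with the LSK CD34- CD150+ CD48- Flk2- surface pattern were sorted. The labels give no treatment and no age in weeks. The question put to these genes was whether their RNA levels differed between the genotypes.

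DNMT3A and DNMT3B place new methyl groups on cytosines in DNA, and the TET enzymes oxidise those groups, a first step towards their removal. Polycomb repressive complex 2 (PRC2) methylates lysine 27 of histone H3 through EZH2 or its relative EZH1, and Polycomb repressive complex 1 (PRC1), of which BMI1 is a core subunit, acts at many of the same genes. In blood stem cells, loss of Dnmt3a or Tet2 is known to favour self-renewal, Bmi1 is required for self-renewal, and mutations of DNMT3A, TET2 and ASXL1 are frequent in human clonal haematopoiesis.

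Values are read counts scaled to library size (CPM) with library normalization factors, called normalized CPM here. The libraries held 4024203 to 7470329 gene reads, so that 1 read was worth 0.131 to 0.249 normalized CPM. The 10 genes had between 193 and 1436 reads in a library, which gives a counting error of 2.64% to 7.2%, against coefficients of variation of 4.2% to 26.5% between libraries of a genotype. Itpkb, the mutated gene, measured 10.2, 14.0 and 18.2 normalized CPM in Itpkb-/- libraries 1, 2 and 3, against 22.1, 23.6 and 25.1 in wild-type libraries 1, 2 and 3. Every Itpkb-/- library lay below every wild-type library, although the log2 difference of -0.73 (SE 0.243) did not pass (limma, adjusted p = 0.172) except with library number as a block (0.0541), and a point mutation need not lower the RNA. Of the 6 genes of the sort gate, limma called 0 (0 at an unadjusted p under 0.05), edgeR 0 and DESeq2 1 (Cd48), against 5.5%, 6.02% and 5.66% of all genes tested. With the block 3 passed, against 18.1% of all genes tested. Of those the gate selects for, Kit had a log2 difference of -0.30 (adjusted p = 0.372, with the block 0.0600), while Ly6a and Slamf1 had -0.12 and 0.02. Of those it selects against, Cd48 had 1.14 (adjusted p = 0.328, with the block 0.0205), Flt3 0.84 (0.364, with the block 0.0569) and Cd34 0.18. Of 12 stem cell markers 7 fell and 0 rose, against 3.24% and 2.27% of all genes tested. With the block 9 fell, against 8.97% of all genes. B cell markers summed to at most 38.8 normalized CPM, and to at most 4.04 without Cd79b. T and NK cell markers summed to at most 16.9, and Pax5, Blk, Cd3g and Cd8a had 0 reads in every library. Granulocyte markers ranged from 979 to 18830 normalized CPM among Itpkb-/- libraries and from 751 to 3918 among wild-type libraries. Monocyte and macrophage markers ranged from 48.4 to 489 in Itpkb-/- and from 35.6 to 104 in wild-type libraries. Erythroid markers ranged from 711.5 to 1364 and from 1154 to 1711. Of 14 erythroid markers limma called 2 higher (Rhag and Epor) and 1 lower (Car2), against 2.27% and 3.24% of all genes tested. It called 1 of 5 mast cell and basophil markers higher, and 1 higher and 1 lower of 5 endothelial and stromal markers. In bulk RNA, a change in the share of some cells and a change in RNA per cell cannot be told apart.

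Ezh2 rose in Itpkb-/- LT-HSC, and the other 9 genes did not pass the test. Calls came from limma fitted to log2(normalized CPM + 1) over all 12008 genes, with Benjamini-Hochberg adjustment, and 0.15 was the highest adjusted p accepted, as in the study's own analysis. With that rule 1 of the 10 genes was called, against 5.5% of all genes tested (2.27% higher and 3.24% lower), so the share among the 10 is near what the whole table gives. At an adjusted p of at most 0.05, limma called 0 of the 10, against 1.52% of all genes, and 1 of the 10 had an unadjusted p under 0.05, against 15.5%. The edgeR quasi-likelihood test and DESeq2, run on the read counts recovered from the table, each called 1 of the 10 at the 0.15 limit, Ezh2 in both, against 6.02% and 5.66% of the genes they tested. With library number as a block, limma called 1 of the 10 higher (Ezh2) and 2 lower (Tet1 and Kdm6b), against 9.15% of all genes higher and 8.97% lower.

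Differences between the genotypes were small for most of the 10 genes. The median absolute log2 difference was 0.11 for the 10 genes and 0.22 for all genes tested, while their median level was 91.2 normalized CPM against 29.0, and their median standard error 0.168 against 0.223. In 2 of the 10 genes the 3 Itpkb-/- libraries did not overlap the 3 wild-type libraries, Ezh2 above and Kdm6b below, against 21.3% of all genes tested. For Dnmt3a, Dnmt3b, Tet2, Tet3, Asxl1, Ezh1 and Bmi1, log2 differences ran from -0.11 to 0.13, adjusted p-values from 0.698 to 0.967, and the 95% intervals of the fold from 0.696 to 1.40.

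**Figure D1:**
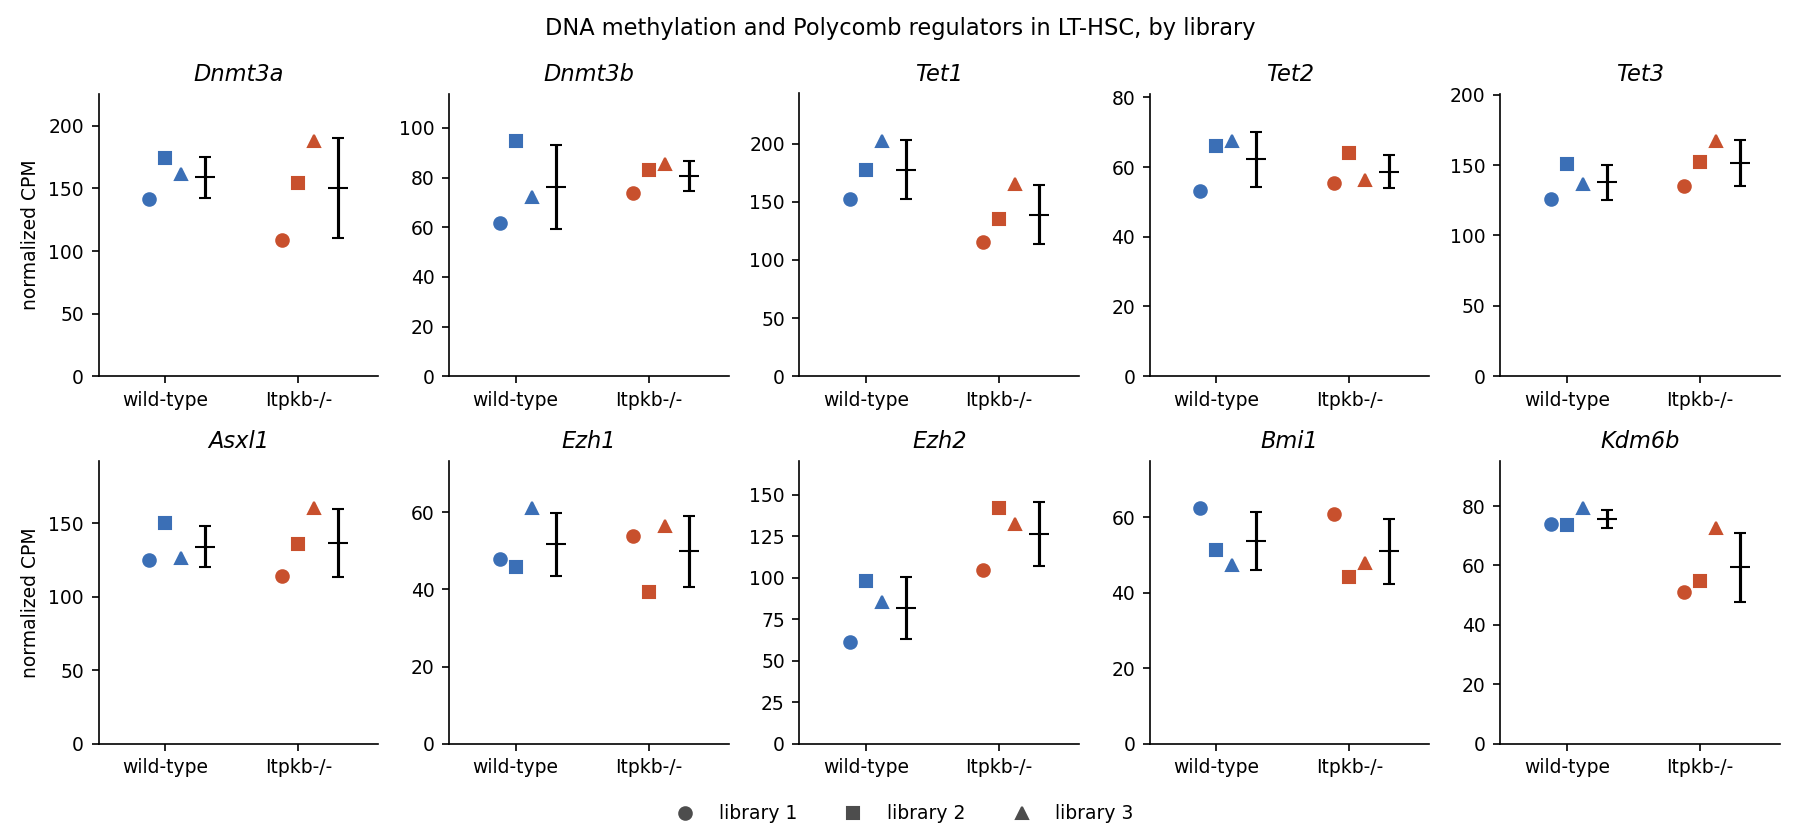
Normalized CPM (vertical axes, from 0) of the 10 genes in each library, with the wild-type libraries in blue and the Itpkb-/- libraries in red, numbered by marker shape. Bars are means and error bars are SD (n = 3 libraries). Ezh2 is at 105 to 142 in Itpkb-/- and 61.2 to 98.0 in wild-type libraries, without overlap. Kdm6b lies lower in Itpkb-/- without overlap, and the other 8 genes overlap.

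Ezh2, which encodes the PRC2 methyltransferase most used by dividing cells, lies on the minus strand of chromosome 6 at 47530139 to 47595341 (mm10, as are all positions here). It measured 105, 142 and 132.5 normalized CPM in Itpkb-/- libraries 1, 2 and 3, against 61.2, 98.0 and 85.4 in wild-type libraries 1, 2 and 3. The lowest Itpkb-/- library was above the highest wild-type library, and library 1 was the lowest of each genotype. Group means of 126 ± 19.5 and 81.6 ± 18.7 normalized CPM (SD over 3 libraries) gave a log2 difference of 0.64 (SE 0.190), or 1.56-fold with a 95% interval of 1.17 to 2.08 (limma, adjusted p = 0.133). Within same-numbered libraries the log2 difference was 0.76, 0.53 and 0.63. With library number as a block, the adjusted p was 0.00346, and edgeR and DESeq2 gave 0.117 and 0.0544. The call was lost with no filter on low values (limma, adjusted p = 0.187), with plain library totals (0.180) and with quantile normalization (0.159), at log2 differences of 0.60 to 0.64. Among omissions of a library it was kept without Itpkb-/- library 1 (adjusted p = 0.0839) and without wild-type library 2 (0.149), and lost without each of the other four, with limma adjusted p-values of 0.218 to 0.341 and log2 differences that stayed positive, at 0.45 to 0.78 over all 6 omissions. A GENCODE lincRNA, Gm26625, overlaps 174 bases of Ezh2 exons on the opposite strand, and the library kit does not keep strand.

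Beside the rise of Ezh2, proliferation genes tended higher and stem cell markers lower in Itpkb-/- libraries. Of 22 proliferation genes, all 22 had a positive log2 difference, with a median of 0.58. Limma called 6 higher (Cdk1, Ccnb1, Cenpa, Kif11, Mcm7 and Tk1), against 2.27% of all genes tested. DESeq2 called 12, against 5.66% of all genes, and 17 passed with the block, against 18.1%. The summed level of the 22 genes was 2782, 4552 and 3684 normalized CPM in Itpkb-/- libraries 1, 2 and 3, against 2118, 2872 and 2801 in wild-type libraries. The genotypes overlapped in this sum through Mki67, at 202 normalized CPM in Itpkb-/- library 1 and 549 and 535 in wild-type libraries 2 and 3. Without Mki67, the other 21 genes summed to 2579, 3449 and 2844 in Itpkb-/- and 1974, 2323 and 2267 in wild-type libraries. Every Itpkb-/- library then lay above every wild-type library, a separation that depends on leaving out this 1 gene. The 12 stem cell markers summed to 1355 to 2071 normalized CPM in Itpkb-/- and 2522 to 3124 in wild-type libraries. Granulocyte markers had a positive log2 difference in 15 of 15, of which limma called 0 (1 at an unadjusted p under 0.05) and edgeR 0. DESeq2 called 2 of them, against 5.66% of all genes, and 14 passed with the block, against 18.1%. The sum of the granulocyte markers was highest in Itpkb-/- library 2 (18830) and lowest in wild-type library 3 (751). Without Itpkb-/- library 2 the log2 difference of Ezh2 was 0.55 (limma, adjusted p = 0.324), in a fit that called 263 genes in all, against 661 with every library. The part of any of these groups in the Ezh2 result was not tested.

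Ezh1, the PRC2 methyltransferase that is kept in resting cells, lies on the minus strand of chromosome 11 at 101191115 to 101226463. It measured 53.8, 39.3 and 56.5 normalized CPM in Itpkb-/- libraries 1, 2 and 3, against 48.0, 45.9 and 61.1 in wild-type libraries. The genotypes overlapped, and library 2 was lowest in each. The log2 difference was -0.06 (SE 0.189), with a 95% interval of -0.47 to 0.36 (limma, adjusted p = 0.929). The log2 level of Ezh1 minus that of Ezh2, a comparison within each library that scaling between libraries hardly affects, was -0.95, -1.83 and -1.22 in Itpkb-/- and -0.34, -1.08 and -0.48 in wild-type libraries. It was lower in the Itpkb-/- library of each of the 3 same-numbered pairs, with differences of -0.60, -0.75 and -0.74, but wild-type library 2 lay below Itpkb-/- library 1. The means of -1.33 ± 0.452 and -0.63 ± 0.392 (SD, n = 3 each) differed by -0.70, with a two-sided exact permutation p = 0.2, where 3 against 3 libraries can give no less than 0.1.

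**Figure D2:**
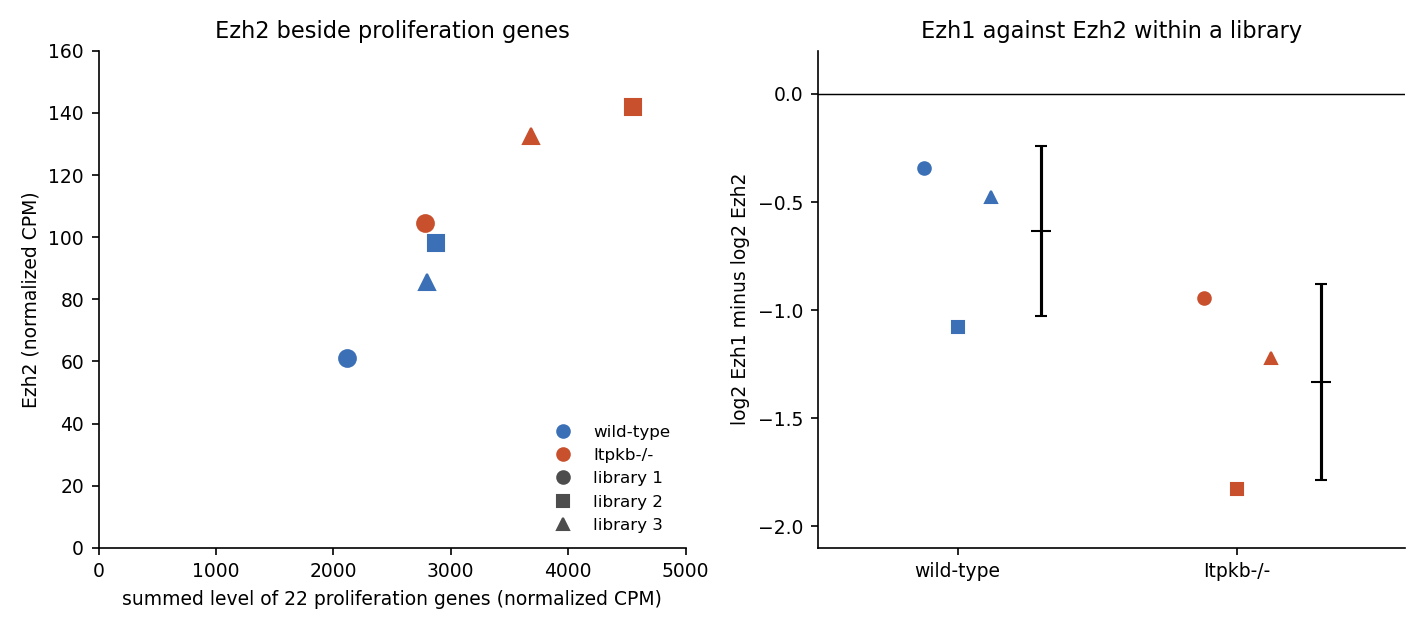
Left, Ezh2 against the summed level of 22 proliferation genes, both in normalized CPM, with 1 point per library. Right, log2 level of Ezh1 minus that of Ezh2 per library, with means and SD (n = 3). Ezh2 is at 105 to 142 in Itpkb-/- and at 61.2 to 98.0 in wild-type libraries. The sum of Itpkb-/- library 1 (2782) lies below those of wild-type libraries 2 and 3 through Mki67 and above them without it (2579 against 2323 and 2267), and the difference between Ezh1 and Ezh2 overlaps between genotypes.

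The promoters of the paired PRC2 methyltransferases are shown because Ezh2 was called and Ezh1 was not. A call for only one of them does not show that they differed. The level of Ezh1 minus that of Ezh2 overlapped between genotypes (two-sided exact permutation p = 0.2). The windows run from 250 bases before to 50 bases after the RefSeq start (GRCm38.p6), on the gene's strand, 5′ to 3′. Ezh2 is at chr6:47594981-47595280 (minus strand) and Ezh1 at chr11:101226414-101226713 (minus strand). Capitals mark E2F-type sequences (TTTGGCGC, TTTCCCGC, TTTGCCGC or TTTCGCGC, searched on both strands) and CCAAT or its reverse complement ATTGG. These motifs were chosen after the Ezh2 promoter had been read.
Ezh2: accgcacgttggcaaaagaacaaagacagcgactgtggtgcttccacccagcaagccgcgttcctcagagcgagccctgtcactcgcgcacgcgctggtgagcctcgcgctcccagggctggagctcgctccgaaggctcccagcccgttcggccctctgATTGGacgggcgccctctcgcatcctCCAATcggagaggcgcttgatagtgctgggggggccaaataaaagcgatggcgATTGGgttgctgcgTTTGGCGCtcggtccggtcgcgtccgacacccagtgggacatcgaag
Ezh1: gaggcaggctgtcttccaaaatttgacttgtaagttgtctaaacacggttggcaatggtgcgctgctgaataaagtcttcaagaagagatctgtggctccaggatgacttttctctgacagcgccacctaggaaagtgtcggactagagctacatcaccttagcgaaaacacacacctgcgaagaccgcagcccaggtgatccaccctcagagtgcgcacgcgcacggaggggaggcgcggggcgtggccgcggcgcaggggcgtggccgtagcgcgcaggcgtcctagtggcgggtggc
The Ezh2 window held 1 E2F-type sequence, 3 bases after the start, and 3 CCAAT boxes, at 90, 64 and 11 bases before it, the first and last of them on the opposite strand. The Ezh1 window held 0 of either. Among 32851 RefSeq windows of this length, 2.26% held an E2F-type sequence, 37.4% a CCAAT box, 3.37% at least 3 CCAAT boxes, and 46 windows (0.14%) an E2F-type sequence together with at least 3 CCAAT boxes. This combination was taken from the Ezh2 window, so its share does not measure how unusual that window is. Windows were matched for 9 of the 10 genes, 11 windows in all, of which 1 held an E2F-type sequence and 2 a CCAAT box (Ezh2 and Tet3). A match of letters is a description of the sequence and not evidence of binding. The Ezh2 window had 31 CpG sites and the Ezh1 window 23, against a median of 7 over all windows. Among the other genes, CpG counts ran from 13 in Asxl1 to 57 in Tet2, so that all 11 windows exceeded the median.

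Bmi1, the PRC1 subunit needed for stem cell self-renewal, lies on the plus strand of chromosome 2 at 18677018 to 18686629. It measured 60.8, 44.3 and 47.8 normalized CPM in Itpkb-/- libraries 1, 2 and 3, against 62.4, 51.4 and 47.5 in wild-type libraries. The genotypes overlapped almost wholly, and library 1 was highest in each. With a log2 difference of -0.08 (SE 0.178), Bmi1 had a 95% interval of -0.47 to 0.31 (limma, adjusted p = 0.886).

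Asxl1, a partner of the enzyme that removes ubiquitin from histone H2A, lies on the plus strand of chromosome 2 at 153345829 to 153404007. It measured 114, 136 and 160 normalized CPM in Itpkb-/- libraries 1, 2 and 3, against 125, 150 and 127 in wild-type libraries. The Itpkb-/- libraries held both the lowest and the highest value. The log2 difference was 0.02 (SE 0.154, 95% interval -0.32 to 0.36, limma adjusted p = 0.967), and its sign turned under plain library totals (-0.016) and quantile normalization (-0.026). A transcript on the opposite strand, 2500004C02Rik, overlaps 197 bases of Asxl1 exons, and the library kit does not keep strand.

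Kdm6b, which encodes a demethylase that removes the mark placed by PRC2, lies on the minus strand of chromosome 11 at 69398508 to 69413675. It measured 51.0, 54.7 and 72.6 normalized CPM in Itpkb-/- libraries 1, 2 and 3, against 74.1, 73.5 and 79.3 in wild-type libraries. Every Itpkb-/- library was below every wild-type library, by a narrow margin for Itpkb-/- library 3, which was 72.6 against 73.5. The log2 difference of -0.36 (SE 0.164, 95% interval -0.72 to 0.00) did not pass (limma, adjusted p = 0.326). It passed with library number as a block (adjusted p = 0.117), a fit that called 18.1% of all genes. The antisense transcript Kdm6bos overlaps 286 bases of Kdm6b exons, and without strand its reads cannot be told apart from those of Kdm6b.

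Tet1 lies on the minus strand of chromosome 10 at 62804570 to 62908996. It measured 116, 135 and 166 normalized CPM in Itpkb-/- libraries 1, 2 and 3, against 152, 178 and 203 in wild-type libraries. Library 3 was highest and library 1 lowest in each genotype, and Itpkb-/- library 3 lay above wild-type library 1, so the groups overlapped. Group means of 139 ± 25.1 and 177 ± 25.2 normalized CPM (SD over 3 libraries) gave a log2 difference of -0.36 (SE 0.163), which did not pass (limma, adjusted p = 0.323). Within same-numbered libraries the log2 difference was -0.39, -0.39 and -0.29, lower in Itpkb-/- in 3 of 3, and with library number as a block it passed (adjusted p = 0.0408).

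Tet2, the TET gene most often mutated in human blood cell clones, lies on the minus strand of chromosome 3 at 133463679 to 133545139. It measured 55.5, 64.0 and 56.2 normalized CPM in Itpkb-/- libraries 1, 2 and 3, against 53.2, 65.9 and 67.6 in wild-type libraries. The wild-type libraries enclosed the Itpkb-/- libraries. With a log2 difference of -0.08 (SE 0.157), Tet2 had a 95% interval of -0.43 to 0.26 (limma, adjusted p = 0.865). The antisense gene Gm42567 overlaps 43 bases of Tet2 exons.

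Tet3 lies on the minus strand of chromosome 6 at 83362373 to 83459084. It measured 135, 152 and 167 normalized CPM in Itpkb-/- libraries 1, 2 and 3, against 126, 150.5 and 136 in wild-type libraries. The Itpkb-/- library was the higher of each same-numbered pair, while the groups overlapped. Between genotypes the log2 difference was 0.13 (SE 0.136), with a 95% interval of -0.16 to 0.43 (limma, adjusted p = 0.698).

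Dnmt3a lies on the plus strand of chromosome 12 at 3806007 to 3914443. It measured 109, 155 and 188 normalized CPM in Itpkb-/- libraries 1, 2 and 3, against 141.5, 174 and 161 in wild-type libraries. The Itpkb-/- libraries spread further (SD 39.9, against 16.4) and held both extremes. The log2 difference was -0.11 (SE 0.188), with a 95% interval of -0.52 to 0.30 (limma, adjusted p = 0.844), and it ranged from -0.29 to 0.11 when each library was left out in turn. The antisense gene Dnmt3aos overlaps 133 bases of Dnmt3a exons.

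Dnmt3b lies on the plus strand of chromosome 2 at 153649450 to 153687730. It measured 73.8, 83.1 and 85.3 normalized CPM in Itpkb-/- libraries 1, 2 and 3, against 61.7, 94.9 and 72.2 in wild-type libraries. The wild-type libraries enclosed the Itpkb-/- libraries, with library 1 lowest in each genotype. The log2 difference was 0.10 (SE 0.173), with a 95% interval of -0.28 to 0.48 (limma, adjusted p = 0.842). The log2 level of Dnmt3a minus that of Dnmt3b was 0.55, 0.89 and 1.13 in Itpkb-/- and 1.19, 0.87 and 1.15 in wild-type libraries. Its means of 0.86 ± 0.291 and 1.07 ± 0.174 (SD, n = 3 each) did not separate the genotypes (difference -0.21, two-sided exact permutation p = 0.4, smallest possible 0.1).

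**Figure D3:**
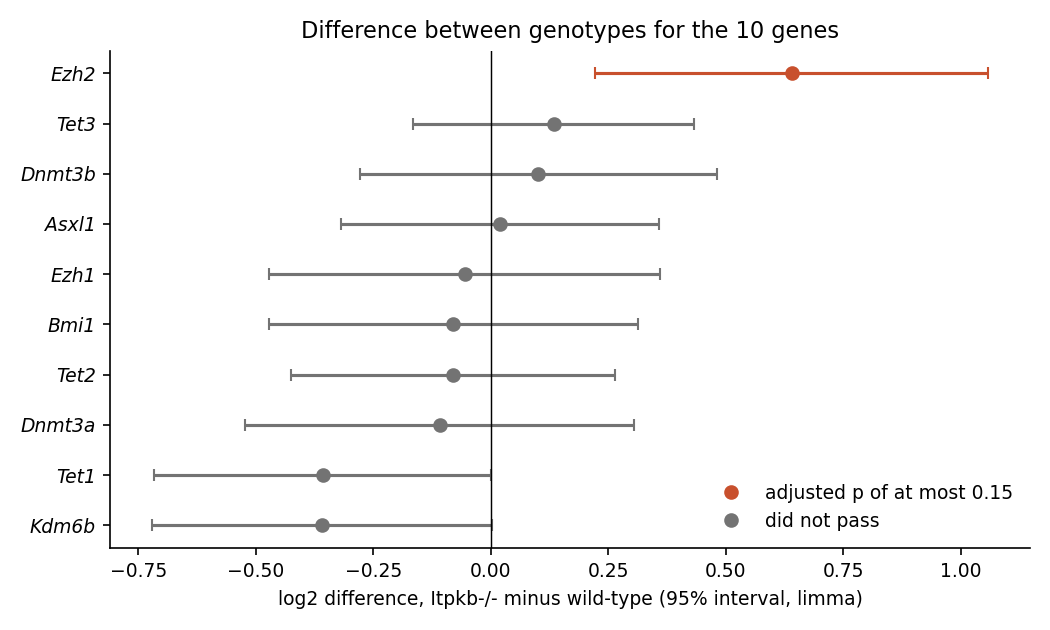
Log2 difference between Itpkb-/- and wild-type (horizontal axis, from log2(normalized CPM + 1)) for each of the 10 genes, with 95% intervals from limma (n = 3 libraries each). Red marks an adjusted p of at most 0.15. The interval of Ezh2 lies above 0 (0.22 to 1.06), those of Tet1 and Kdm6b reach 0 at their upper ends, and the other 7 cross 0.

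Levels between the genes were compared per kilobase of the transcript with the longest coding sequence. In wild-type libraries Ezh2 was highest, at 29.3 ± 6.72 normalized CPM per kb (SD, n = 3), followed by Tet3 (23.2), Asxl1 (19), Dnmt3b (17.7), Dnmt3a (16.4), Bmi1 (15.0), Tet1 (12.4), Ezh1 (12.3) and Kdm6b (11.4). Tet2 was last at 6.90 ± 0.871, and it was the only gene whose libraries did not overlap those of its neighbour in this order. In Itpkb-/- libraries Ezh2 measured 45.3 ± 6.99 normalized CPM per kb and stood clear of Tet3, the next gene (25.5). The order depends on the length used. Per kilobase of all exons joined, Ezh2 was the 4th of the 10 in wild-type libraries (12.2 normalized CPM per kb), behind Asxl1 (18), Dnmt3b and Bmi1, while Tet2 was again last (3.69). By that length Ezh2 was highest in Itpkb-/- libraries (18.9) but overlapped Asxl1, the next gene (18.4).

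The partners of these genes in the same systems were counted by list. Of 10 PRC2 partners tested, limma called 0 (1 at an unadjusted p under 0.05), as did edgeR and DESeq2. With the block it called 2, against 18.1% of all genes tested. The median log2 difference of these partners was 0.16, against 0.00 over all genes tested, and 8 of 10 were positive. In 4 of 10, the Itpkb-/- libraries lay above all wild-type libraries, against 10% of all genes, and in 0 of 10 below, against 11.3%. Suz12, a core subunit that PRC2 needs for its activity, measured 191, 181 and 181 normalized CPM in Itpkb-/- against 133, 162 and 163 in wild-type libraries. Its log2 difference of 0.28 did not pass (limma, adjusted p = 0.337) but did with the block (0.133). Phf19, which helps to bring PRC2 to its sites, measured 25.3, 19.9 and 22.8 in Itpkb-/- and 9.45, 15.4 and 17.9 in wild-type libraries (log2 difference 0.67, adjusted p = 0.245, with the block 0.110). Eed, the third core subunit, had a log2 difference of 0.09 (adjusted p = 0.865) and was picked after its value was seen, as were Rbbp4 (0.24, adjusted p = 0.465) and Rbbp7 (0.23, adjusted p = 0.377).

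Of 31 PRC1 partners tested, 0 rose and 2 fell, 6.45% of the list against 5.5% of all genes tested, with a median log2 difference of -0.09. The edgeR test and DESeq2 also called 2 lower, against 6.02% and 5.66% of all genes they tested called in either direction. Limma with the block called 3 higher and 5 lower, against 9.15% and 8.97% of all genes tested. In 2 of 31 the Itpkb-/- libraries lay above all wild-type libraries and in 7 below, against 10% and 11.3% of all genes tested. Bcorl1, a corepressor relative of Bcor, fell from 64.4, 53.2 and 52.5 normalized CPM in wild-type to 38.1, 35.6 and 33.2 in Itpkb-/- libraries. The groups were well apart, with a log2 difference of -0.65 (SE 0.163, limma adjusted p = 0.0817). Cbx6, a chromodomain subunit of PRC1, fell from 99.97, 78.8 and 92.1 to 67.7, 51.9 and 68.3 normalized CPM, with a log2 difference of -0.52 (SE 0.163) that lay at the limit (limma, adjusted p = 0.150). Each of these calls was kept without Itpkb-/- library 1 and lost without each of the other five, with limma adjusted p-values of up to 0.256 for Bcorl1 and 0.419 for Cbx6. Rnf2, the main ubiquitin ligase of PRC1, had a log2 difference of -0.12 (adjusted p = 0.776) and was picked after its value was seen. So was Cbx8, another chromodomain subunit, at 0.65, 1.86 and 2.36 normalized CPM in Itpkb-/- against 2.98, 6.58 and 6.52 in wild-type libraries (log2 difference -1.28, limma adjusted p = 0.159, with the block 0.0394).

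Of 30 genes tested that maintain, read, remove or supply DNA methylation, 1 rose and 0 fell, 3.33% of the list against 5.5% of all genes tested, with a median log2 difference of 0.07. With the block, 3 were higher and 3 lower, against 9.15% and 8.97% of all genes tested. In 4 of 30 the Itpkb-/- libraries lay above all wild-type libraries and in 4 below, against 10% and 11.3% of all genes tested. Mat2a, which makes the methyl donor S-adenosylmethionine, measured 550, 426 and 468 normalized CPM in Itpkb-/- against 383, 312 and 363 in wild-type libraries. All Itpkb-/- libraries were the higher, and the log2 difference was 0.45 (SE 0.137, limma adjusted p = 0.146). The call was lost in each of 6 omissions of a library (adjusted p 0.162 to 0.372). Gadd45g, a growth arrest gene of a family linked to demethylation, was called beside Mat2a by edgeR (adjusted p = 0.145) and DESeq2 (0.114), with 9.80, 15.5 and 26.6 normalized CPM in Itpkb-/- and 8.19 to 8.37 in wild-type libraries. It did not pass limma (log2 difference 0.88, adjusted p = 0.225, with the block 0.0760) and was picked after its values were seen. Zbtb4, which binds methylated DNA, measured 22.4, 16.9 and 19.5 in Itpkb-/- and 37.1, 27.2 and 27.9 in wild-type libraries (log2 difference -0.62, limma adjusted p = 0.185, with the block 0.0581). Dnmt1, the maintenance methyltransferase that copies methylation at replication, was picked after its values were seen, at 292, 512 and 471 in Itpkb-/- and 250, 343 and 327 in wild-type libraries. The groups overlapped, and its log2 difference of 0.44 passed with the block (adjusted p = 0.0110) but not without it (limma, adjusted p = 0.335).

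Of 16 genes tested that act with Asxl1 or Kdm6b, limma called 0 (3 at an unadjusted p under 0.05), as did edgeR and DESeq2. With the block 1 was higher and 2 lower, against 9.15% and 8.97% of all genes tested. In 0 of 16 the Itpkb-/- libraries lay above all wild-type libraries and in 2 below, against 10% and 11.3% of all genes tested. The median log2 difference of the 16 was 0.01. Mbd6, a partner of the deubiquitinase BAP1, had a log2 difference of -0.39 (adjusted p = 0.256, with the block 0.0796), and Paxip1, a partner of the histone methylase complexes that hold Kdm6a, one of 0.64 (adjusted p = 0.266, with the block 0.0456). Bap1 itself (0.07, adjusted p = 0.904) and Kdm6a (0.01, adjusted p = 0.984) were picked after their values were seen.

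**Figure D4:**
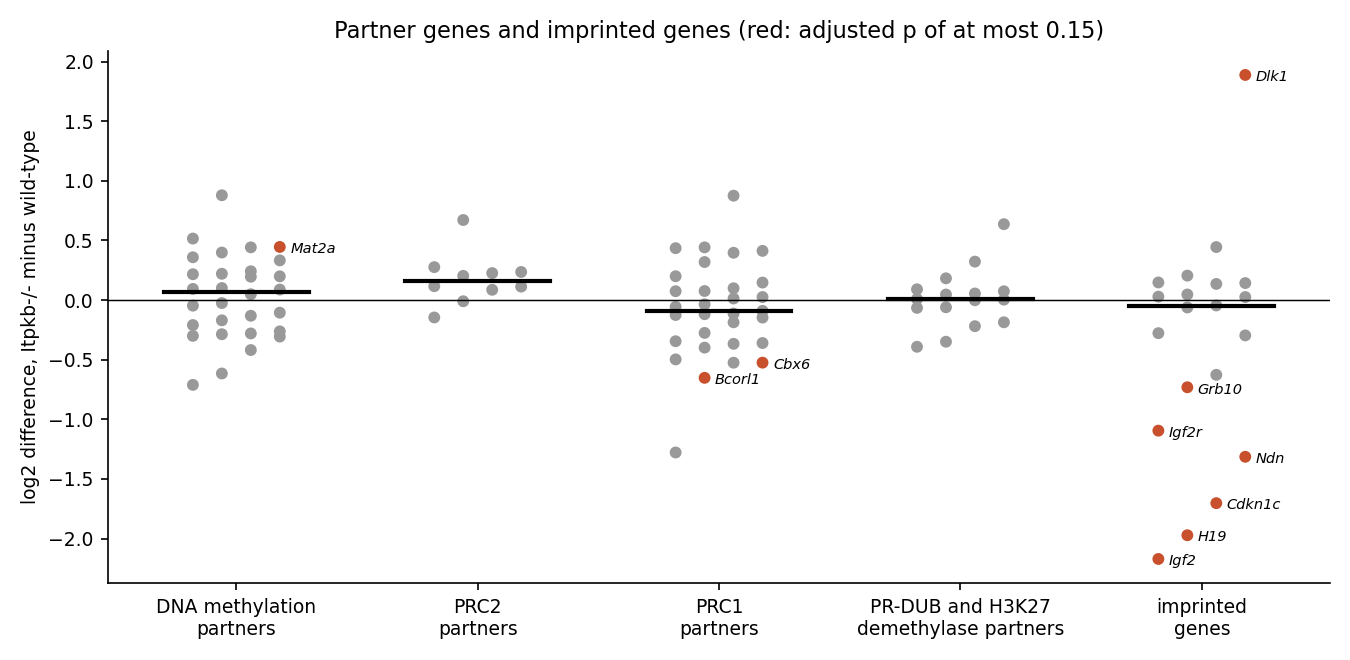
Log2 difference between Itpkb-/- and wild-type (vertical axis) for the tested genes of 4 partner lists and of the imprinted genes, with 1 point per gene and a bar at the list's median. Red marks an adjusted p of at most 0.15 (limma). Mat2a is the red point among 30 DNA methylation partners, Bcorl1 and Cbx6 are those among 31 PRC1 partners, and 7 of 20 imprinted genes are red, Dlk1 above 0 and 6 below.

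Imprinted genes are expressed from 1 parental copy, under the control of DNA methylation, and several are known to be high in LT-HSC. Of 36 on the list, 35 were in the table and 20 were tested. Of these, 1 rose and 6 fell, 35.0% of the tested genes against 5.5% of all genes. The edgeR test and DESeq2 also called 1 higher and 6 lower, against 6.02% and 5.66% of all genes they tested. With no filter on low values, 7 of 31 were called, against 452 of 15599 genes. The list was chosen with earlier results of these data known. Igf2 and H19 passed the filter through their higher wild-type libraries, and Dlk1 through its higher Itpkb-/- libraries. The share is therefore a description and not a test. The list's median log2 difference was -0.05, so that the called genes lay far from an otherwise level list. Igf2r, which clears insulin-like growth factor 2, fell from 51.0, 53.4 and 63.1 normalized CPM in wild-type libraries to 28.1, 26.7 and 22.02 in Itpkb-/- libraries, without overlap (log2 difference -1.10, SE 0.178, limma adjusted p = 0.0175). Cdkn1c, an inhibitor of cyclin-dependent kinases that holds stem cells in rest, fell from 30.8, 20.5 and 19.9 to 7.84, 3.73 and 8.91 (log2 difference -1.70, SE 0.323, limma adjusted p = 0.0320). The highest Itpkb-/- library was thus under the lowest wild-type library by a wide margin. Grb10, an adaptor that dampens growth factor receptors and the seventh called gene by p, fell from 389, 270 and 367 to 225, 160 and 233 normalized CPM (log2 difference -0.73, SE 0.179, limma adjusted p = 0.0777).

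Dlk1, a Notch-related surface protein, was the imprinted gene that rose, from 4.48, 0.75 and 3.54 normalized CPM in wild-type to 10.5, 12.7 and 12.98 in Itpkb-/- libraries (log2 difference 1.89, limma adjusted p = 0.0516). Ndn, which encodes the growth suppressor necdin, fell from 20.4, 24.2 and 31.3 to 10.7, 6.99 and 11.1 (log2 difference -1.31, limma adjusted p = 0.0381). The neighbours Igf2 and H19 were low in all libraries and fell, Igf2 from 4.48 to 15.2 in wild-type to 0.39 to 2.18 in Itpkb-/- libraries (adjusted p = 0.0449), and H19 from 2.09 to 6.22 to 0.00 to 1.05 (limma, adjusted p = 0.0634). In none of these 7 genes did the genotypes overlap, which held for 21.3% of all genes tested. The 7 were picked as called in these same libraries, so this separation adds no further evidence. All 7 calls rested on wild-type library 3. Without it limma called 0 of the 20 imprinted genes, with adjusted p-values of 0.152 for Igf2r and Cdkn1c to 0.317 for Grb10, in a fit that called 64 genes in all. The log2 differences of the 7 genes kept their sign, at -1.81 for Cdkn1c and -1.16 for Ndn. Without wild-type library 1 limma called 4 of the 20, in a fit that called 278 genes in all. Without Itpkb-/- library 2 it called 5, in a fit that called 263, against 661 with every library. The stem cell markers, the proliferation genes and the granulocyte markers moved between the same libraries as given for Ezh2, and their part in these results was not tested. The table holds RNA levels only, so it gives neither methylation nor the parental copy in use.

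**Figure D5:**
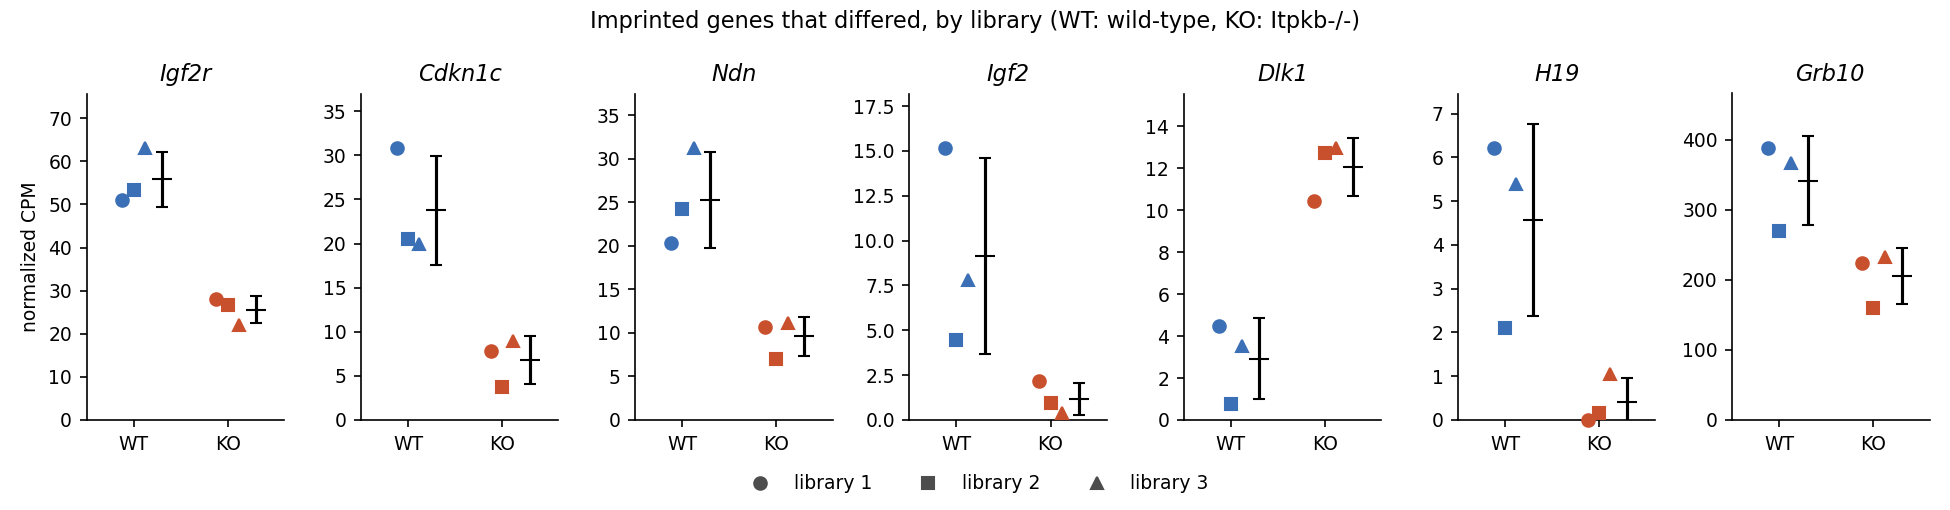
Normalized CPM (vertical axes, from 0) of the 7 imprinted genes that passed the test, per library, with means and SD (n = 3). Itpkb-/- libraries are below all wild-type libraries for Igf2r, Cdkn1c, Grb10, Ndn, Igf2 and H19, and above them for Dlk1 (10.5 to 12.98 against 0.75 to 4.48).

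Genes that Polycomb or DNA methylation keeps silent in other cells were hardly detected in either genotype. Of 40 developmental genes known as Polycomb targets, 31 had no read in any library and 37 had at most 3 reads in every library, the floor used here, worth 0.393 to 0.746 normalized CPM. Cdkn2a, the senescence gene that Bmi1 and Ezh2 hold down, was among those at 0 reads. The genes above the floor in some library were Bmp4, at up to 2.61 normalized CPM, Ebf1, at up to 1.55, and Gata3. Gata3, a transcription factor of T cells that stem cells also express, was the 1 gene of the list tested, and it fell from 27.1, 20.3 and 21.2 normalized CPM in wild-type to 13.3, 9.48 and 14.0 in Itpkb-/- libraries (log2 difference -0.86, SE 0.239, limma adjusted p = 0.115). The groups did not overlap, and the call was kept without Itpkb-/- library 1 or 3 and lost without each of the other four (limma, adjusted p 0.203 to 0.312). Of 19 germline genes that DNA methylation silences in body tissues, 13 had no read in any library and 14 had at most 3 reads in each. Brdt, the 1 germline gene tested, had a log2 difference of -0.47 (limma, adjusted p = 0.626). It passed the filter through its wild-type libraries (1.49 to 2.05 normalized CPM), against 0.44 to 1.57 in Itpkb-/- libraries. Tdrd1, picked like Bmp4, Ebf1 and Cdkn2a after its values were seen, reached at most 2.18 normalized CPM. At this depth a gain of such genes below the floor was not detectable.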

How the data were processed

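RNA of sorted LT-HSC from 3 Itpkb-/- and 3 wild-type pools of 4 mice was amplified from 1 to 5 ng with the NuGEN Ovation kit, per the labels' protocols, which does not keep strand. Per the submitters' processing notes, CASAVA 1.8.2, cutadapt, TopHat2 2.0.8b, the mm10 genome, Partek and edgeR were used. The authors deposited a normalized CPM signal per gene, and 100% of its values came out as whole reads within 0.01 read. These recovered read counts were used only for the edgeR 4.0.16 quasi-likelihood test and DESeq2 1.42.0. Genes reaching a value of 1 in 3 or more libraries were tested with limma 3.58.1 (mean-variance trend, R 4.3.3) on log2(value + 1), which understates the fold of low genes, two-sided, with Benjamini-Hochberg adjustment over all 12008 genes. The fit was tested on simulated data with 200 genes, picked at random, changed in each run. It called 18.8% of genes changed 1.5-fold and 64.8% of genes changed 2-fold, so a missed call at a small fold says little. These rates were not measured for the 10 genes, whose median level was higher and median standard error lower than over all genes tested. The 10 genes, the partner lists and the marker lists were chosen with earlier results of these data known. The genes named are the 10 genes, Itpkb and, from each list, those called (at most 6 by p) or, with fewer than 2 called, the 2 with the lowest p, other genes being marked where they appear. Same-numbered libraries deviated together (correlations 0.296, 0.268 and 0.284; -0.227 to -0.0475 between other numbers), so a fit with library number as a block stands beside results whose call it changes (marked as with the block). The labels do not say what a number stands for. Alternatives were another pseudocount, other filters, scalings, tests and thresholds, and omission of each library. Counting errors and floors cover counting only, and p-values measure the spread between pooled libraries.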

Additional observations from a re-analysis of the deposited data

How the results depend on the processing

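Of all genes tested, 661 were called, and 2176 with library number as a block, 387 with the study's limits on fold and level (an alternative chosen after seeing the data), 182 at an adjusted p of at most 0.05, and 128 without both libraries numbered 2. Leaving out each library in turn gave 64 (without wild-type library 3) to 839 (without Itpkb-/- library 1) calls. Of the 10 genes, 1 was called. That count was 3 with the block (1 higher, 2 lower) and 0 with no filter on low values, with plain library totals, with quantile normalization, without both libraries numbered 2 and at 0.05, and 0 to 1 over the omissions of a library. For DNA methylation partners the count of 1 was 6 with the block, 2 with edgeR and 2 with DESeq2, 0 with no filter, a filter at 4, plain totals, quantile normalization, 0.05, the study's limits and without both libraries numbered 2, and 0 to 3 over the omissions. The 2 PRC1 partners were 8 with the block, 1 with pseudocount 0.5, no filter, a filter at 4 or quantile normalization, 0 at 0.05 and without both libraries numbered 2, and 0 to 3 over the omissions. PRC2 partners went from 0 to 2 and the partners of Asxl1 and Kdm6b from 0 to 3 with the block, and both stayed at 0 over the omissions, as did the germline genes. Of 7 imprinted genes, 4 remained at 0.05 and 3 with the study's limits, with 0 (without wild-type library 3) to 7 over the omissions. The 1 developmental gene became 0 with no filter, at 0.05 and without both libraries numbered 2, with 0 to 1 over the omissions. The cause of these moves was not tested.

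With the block, the exact permutation p within pairs was 0.25 for Ezh1 minus Ezh2, the smallest that 3 pairs allow, and 0.75 for Dnmt3a minus Dnmt3b. Over the omissions these differences ran from -0.92 to -0.45 and from -0.35 to -0.06. Signs turned for Asxl1 with plain totals (-0.016) and quantile normalization (-0.026), for Kdm6a with these (-0.027 and -0.036) and without both libraries numbered 2 (-0.059), and without those libraries also for Ezh1 (0.026), Rnf2 (0.012) and Bap1 (-0.10). Over the omissions the log2 difference spanned 0 for Dnmt3a (-0.29 to 0.11), Dnmt3b (-0.038 to 0.27), Asxl1 (-0.10 to 0.14), Ezh1 (-0.15 to 0.10), Bmi1 (-0.21 to 0.031), Eed (-0.030 to 0.21), Bap1 (-0.062 to 0.25) and Kdm6a (-0.081 to 0.087). Of the scalings, plain totals moved the median of all genes most, to a log2 difference of -0.03. With 3 libraries a genotype, small folds were beyond what these data resolve.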
